A study of Mus musculus with 12 samples.

Results

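Potassium channel genes were taken as the mouse protein-coding genes whose symbol begins with Kcn, which gave 94 of the 21887 protein-coding genes in the RefSeq table of GRCm38.p6, the same build as mm10. They were followed in 12 lists of Zic1/2 binding sites from cultured mouse cerebellar granule neurons, 3 libraries each at days 1, 3, 5 and 7 in vitro (DIV1, DIV3, DIV5 and DIV7). Binding was measured by CUT&RUN, in which an antibody, here to the C terminus of Zic1/2, directs a nuclease to cut the DNA beside the bound protein, and the series design calls the libraries of a day biological replicates. The labels give no strain, genotype, age or sex, and name the same culture medium for every library. Cytosine arabinoside at 1 uM, which removes dividing cells, was added on day 2. The DIV1 libraries were taken before it, and its effect cannot be told apart from that of the day between DIV1 and the rest. A peak was counted for a gene when it overlapped the gene span extended by 5 kb on both sides, and these windows covered 11.6 Mb.

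Potassium channels let potassium leave or enter the cell and so set the resting potential, the shape of the action potential and the firing rate of a neuron. Pore-forming subunits fall into voltage-gated (Kv), inward rectifier, tandem-pore leak and calcium- or sodium-activated families, and auxiliary subunits alter their gating and their transport to the membrane. In granule neurons, maturation brings a standing leak current, carried by tandem-pore channels such as Kcnk3 and Kcnk9, and a fast A-type current of the Kv4 family. Zic1 and Zic2, transcription factors with zinc fingers, are made in granule neurons and in the cells that give rise to them. A peak at a gene shows where the protein was, not whether the gene was expressed.

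The lists held 65102 to 89417 peaks and 1.01 to 3.27 M reads in peaks per library, and reads in peaks were 2.96 ± 0.285 M (SD, n = 3) at DIV1 and 1.68 ± 0.748 M at DIV7, so depth moved with the day. In 6 libraries, among them all of DIV1, every total signal is a multiple of 51, and in the other 6 of 50, which was read as the read length. The 12 lists merged into 286729 regions, of which 1598 lay in the windows of potassium channel genes. Constant regions, here those present in each of the 12 lists, numbered 12276, and 66 of them lay in these windows. For the label of the cells, 4 of 9 granule neuron markers had a peak within 1 kb of a gene end in all 12 lists and the lowest, Gabra6, in 8. Of 15 markers of other cell types, of which Ca8 was not used here, 1 (Gad1) had a peak in all 12 lists, Olig1 had one in 11, Calb1 in 9, Mbp in 7 and Olig2 in 6, and the rest in 0 to 4, so these markers overlapped those of granule neurons.

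Of the 94 members, 69 had promoter sequence in the RefSeq table of GRCm38.p6 (250 bases before to 50 after a start site), with 94 promoters in all. A promoter lay in a constant region at 17 of these 69 genes (24.6%), against 6679 of 17492 genes with a promoter entry (38.2%). The letters CCTGCTG and CCCGCTG, cores of motifs known for Zic proteins, were searched on both strands. Either was found in 6 of the 19 channel promoters in constant regions (31.6%) and in 27 of all 94 (28.7%), against 19.8% of all promoters in constant regions and 16.8% of the 21263 promoters of protein-coding genes. CCTGCTG was found in 21.3% of the channel promoters and 10.5% of all promoters, and CCCGCTG in 9.57% and 6.93%. A match describes the letters of a window and is not a binding site, and these shares were not tested.

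The promoters below were chosen after their values were seen, as 5 of the 7 in constant regions where the maximum of the peak fell in the promoter in at least 8 lists (the others are Kcnip3 and Kcnab2). They show what the bound starts of channel genes look like with and without a core: the first 3 carry a match, in capitals, and Kcnc1 and Kcnma1, channels known in granule neurons, carry none. The 250 bases before the start site are shown 5′ to 3′ on the strand of the gene.
Kcnj2 (chr11:111065914-111066163, plus strand): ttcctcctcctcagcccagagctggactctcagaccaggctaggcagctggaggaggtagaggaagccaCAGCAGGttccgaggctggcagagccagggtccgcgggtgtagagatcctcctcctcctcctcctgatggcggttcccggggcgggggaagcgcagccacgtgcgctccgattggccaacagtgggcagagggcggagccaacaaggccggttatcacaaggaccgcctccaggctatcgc
Kcnj3 (chr2:55435720-55435969, plus strand): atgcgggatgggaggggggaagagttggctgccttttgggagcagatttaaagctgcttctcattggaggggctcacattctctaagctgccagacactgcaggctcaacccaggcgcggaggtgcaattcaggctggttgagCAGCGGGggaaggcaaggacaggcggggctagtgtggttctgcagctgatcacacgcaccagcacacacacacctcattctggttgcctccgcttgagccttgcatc
Kcnh1 (chr1:192190527-192190776, plus strand): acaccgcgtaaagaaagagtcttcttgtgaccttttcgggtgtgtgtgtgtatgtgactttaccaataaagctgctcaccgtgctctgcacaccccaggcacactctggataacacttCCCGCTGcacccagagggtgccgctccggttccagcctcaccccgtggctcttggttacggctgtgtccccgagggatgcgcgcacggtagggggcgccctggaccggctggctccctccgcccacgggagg
Kcnc1 (chr7:46396218-46396467, plus strand): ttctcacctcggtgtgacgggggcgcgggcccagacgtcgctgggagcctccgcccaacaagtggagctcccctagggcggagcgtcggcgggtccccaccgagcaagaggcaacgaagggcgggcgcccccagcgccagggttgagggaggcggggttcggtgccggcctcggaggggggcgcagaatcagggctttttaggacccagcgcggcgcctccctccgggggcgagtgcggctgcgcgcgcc
Kcnma1 (chr14:24004206-24004455, minus strand): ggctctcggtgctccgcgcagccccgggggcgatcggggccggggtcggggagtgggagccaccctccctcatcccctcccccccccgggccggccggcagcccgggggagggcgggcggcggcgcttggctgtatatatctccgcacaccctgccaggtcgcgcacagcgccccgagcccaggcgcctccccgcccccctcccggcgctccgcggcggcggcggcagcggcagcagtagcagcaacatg
The maximum of the peak fell in the 300-base promoter in 11 lists at Kcnj2, an inward rectifier that holds the resting potential, in 9 lists at Kcnj3, a G-protein-gated inward rectifier, and in 8 lists at Kcnh1, the ether-a-go-go channel. It did so in 9 lists at Kcnc1, a Kv3 channel of fast-firing neurons, and in 8 lists at Kcnma1, the large-conductance calcium-activated channel. GC content was 74.7% at Kcnc1 and 78% at Kcnma1, and 57.7% to 66.7% at the 3 promoters shown with a match. Beyond the 5 shown this order did not hold: Kcnmb4, with a match, had 79%, and Kcnab2, with none, 62.7%. The largest number of lists, 11 of 12, was at Kcnj2, with CCTGCTG. Other promoters with that core held the maximum in 8 (Kcnip3), 7 (Kcnq5) and 3 (Kcnmb4) lists, and promoters with neither core in up to 9. CCTGCTG was in 21.1% of channel promoters in constant regions and 21.3% of the other channel promoters. Over all genes these shares were 9.44% in constant regions and 11.1% outside. For CCCGCTG they were 15.8% and 8% at channel genes, and 11.2% and 4.40% over all genes. None of this was tested.

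Zic1/2 peaks were found in at least 1 library at every potassium channel gene, and at 19358 of the 21887 protein-coding genes. Of the 94 channel genes 53 (56.4%) had a peak in every library, against 52.6% of all protein-coding genes. A constant region lay at 44 members (46.8%), against 46.1% of all genes. The channel genes are longer, with a median span of 32.7 kb against 17.2 kb. Among genes over 100 kb a constant region was found at 15 of 23 members (65.2%) and at 66.4% of all such genes, and among the shorter at 29 of 71 (40.8%) and 43.5%. The median density was 4.96 peaks per 100 kb of window at the members and 4.10 at all genes. The share of genes reached by constant binding was thus near that of genes in general at both lengths.

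Of the constant regions at channel genes, 34 of 66 (51.5%) lay within 1 kb of the end of any gene. This share was 69.7% for the constant regions at protein-coding genes and 58.4% for all constant regions. By position in the member gene itself, 28 lay inside the span, 27 at an end and 11 in the flank, and 15 also lay within 5 kb of another gene. Their median width was 1972 bp, against 1719 bp at all genes, and the region at Kcnk3 was the widest with 6456 bp, and that over the start of Kcnc1 had 4280 bp. Constant regions made up 4.13% of all regions at channel genes, against 6.27% at genes in general and 4.28% of all regions. These shares were not matched for gene length and were not tested.

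Potassium channel genes held a smaller part of the peak lists on later days. Their peaks per 10000 peaks of the library were 67.5, 66.8 and 65.8 at DIV1, 67.4, 55.5 and 61.8 at DIV3, 59.5, 51.1 and 53.1 at DIV5 and 47.6, 54.9 and 43.8 at DIV7. Every DIV7 library lay below every DIV1 library, while DIV3 overlapped both DIV1 and DIV5. The means were 66.7 ± 0.843 (SD, n = 3) at DIV1 and 48.8 ± 5.63 at DIV7, lower by 26.9%, while peaks at all protein-coding genes went from 6957.6 ± 164 to 6318 ± 306, lower by 9.2%. Set against peaks at genes alone, channel genes held 95.9 ± 2.57 per 10000 at DIV1 and 77 ± 5.71 at DIV7, lower by 19.7%. The number of members with a peak was 81 ± 2.65 (86.2%) at DIV1 and 72.7 ± 1.15 (77.3%) at DIV7. Of all protein-coding genes 72.7 ± 1.54% had a peak at DIV1 and 70.2 ± 3.29% at DIV7.

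Other ion channel families had lower shares at DIV7 too. Peaks at the 18 genes beginning with Scn (voltage-gated sodium channels and a few other genes of that prefix) were 7.95 ± 0.698 per 10000 at DIV1 and 5.01 ± 0.921 at DIV7, lower by 36.9%. At the 26 Cacn genes (calcium channels) they were 45.6 ± 2.63 and 31.6 ± 6.40, lower by 30.7%, and at the 4 Hcn genes (pacemaker channels) 2.87 ± 0.451 and 2.14 ± 0.440, lower by 25.4%. No test was made of these sums. Depth fell over the same days, and its part in the result was not tested. DIV7 replicate 2, with 2.49 M reads in peaks and read length 50, held 54.9 per 10000. DIV1 replicate 3, with 2.71 M and read length 51, held 65.8. DIV5 replicate 1, with 2.74 M, held 59.5, and DIV3 replicate 2, with 2.08 M, held 55.5. Among the libraries of read length 50, which include none of DIV1, the values were 55.5 and 61.8 at DIV3, 59.5 and 51.1 at DIV5 and 47.6 and 54.9 at DIV7. Among those of read length 51 the mean at DIV1 and the single DIV7 library differed by -22.9, and without the 3 libraries with fewest reads DIV7 and DIV1 differed by -11.9. These 3 were replicates 1 and 3 of DIV7 and replicate 3 of DIV5.

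**Figure D1:**
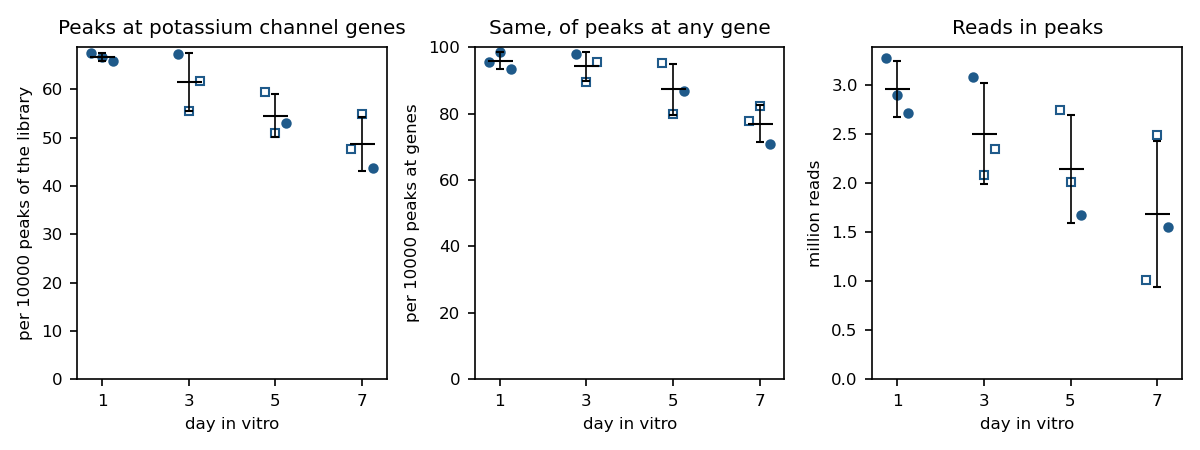
Peaks at potassium channel genes per 10000 peaks of the library (left) and per 10000 peaks at any gene (middle), and M reads in peaks (right), against the day in vitro. Each point is a library (filled circles read length 51, open squares 50), and bars are the mean and SD of 3; all DIV7 libraries lie below all DIV1 libraries in the left and middle panels.

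The rank of the peaks within a list had close values at both ends of the course. The median percentile of the maximum signal among all peaks of a library was 44.9 ± 7.22 (SD, n = 3) for peaks at channel genes at DIV1 and 44.4 ± 6.24 at DIV7, with 51 ± 3.76 and 50.3 ± 10.2 for peaks at any gene. Maxima are low (library medians of 4 to 7) and tie, so these medians move only in steps. Channel genes and any gene shared the value 50.5 at DIV1 replicate 1, but had 36.8 and 54.9 at DIV1 replicate 2. The share of channel peaks in the top 10% of a list was 7.87 ± 1.49% at DIV1 and 6.21 ± 1.15% at DIV7, against 10.9 ± 0.731% and 9.99 ± 1.49% for peaks at genes.

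By subfamily, constant regions per Mb of window were densest at the Kv3 and Kv1 genes, which are short (median spans 32.2 and 11 kb). Per member the order differed. Kv4 genes held 2 constant regions each on average, Kv7 genes 1.6, and Kv3 genes and the ether-a-go-go group 1.25. Kv1 genes held 0.375, with one at 3 of 8 members, and only silent Kv genes held fewer (0.2). The 4 Kv3 genes, which repolarise fast-firing neurons, held 5 constant regions or 15.7 per Mb of window, and 4 of 4 had a peak in every library. The 8 Kv1 genes, low-threshold channels of axons, held 3 (14.6 per Mb), and the 14 tandem-pore genes 10 (11.7 per Mb). The 15 inward rectifiers and the 3 Kv4 genes stood at 7.67 and 7.68 per Mb. The 8 genes of the ether-a-go-go group stood at 6.07 per Mb and the 5 Kv7 genes, several of which carry the M current, at 5.94. The 10 silent Kv genes, which modify other Kv channels, stood at 5.33, the 17 auxiliary genes at 3.31, the 8 calcium- and sodium-activated genes at 2.61 and the 2 Kv2 genes at 1.82 per Mb. The subfamilies at the low end include long genes, with a median span of 265 kb in Kv2 and 120.8 kb in the calcium- and sodium-activated group, but the silent and auxiliary genes have median spans of 17.5 and 24.1 kb.

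Mean peaks per 10000 were lower at DIV7 than at DIV1 in all 11 subfamilies. The difference was widest in Kv2, lower by 36.6% (2.23 ± 0.235 at DIV1, 1.41 ± 0.425 at DIV7), and in Kv4, lower by 35.8% (5.60 ± 0.542 and 3.60 ± 0.940). Inward rectifiers were lower by 32.6%, Kv3 by 32.4%, tandem-pore genes by 31.6%, calcium- and sodium-activated genes by 29.3%, Kv1 by 28.2%, auxiliary genes by 25.5% and silent Kv genes by 25%. The ether-a-go-go group, lower by 15% (6.61 ± 0.451 and 5.62 ± 0.863), and Kv7, lower by 11.6% (6.11 ± 0.485 and 5.40 ± 0.376), differed least. Their sums join genes with slopes of both signs. In peaks per gene over the days, the slope was below 0 at 2 of the 5 Kv7 genes tested and 4 of the 6 of the ether-a-go-go group. In the ether-a-go-go group 0 of these slopes passed in either direction. A small difference in the sum thus does not mean that single genes were unchanged. At DIV3 the Kv7 libraries held 3.96 to 5.70 per 10000, on average below DIV7. These sums were not tested, and subfamilies differ in the number and length of their genes.

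**Figure D2:**
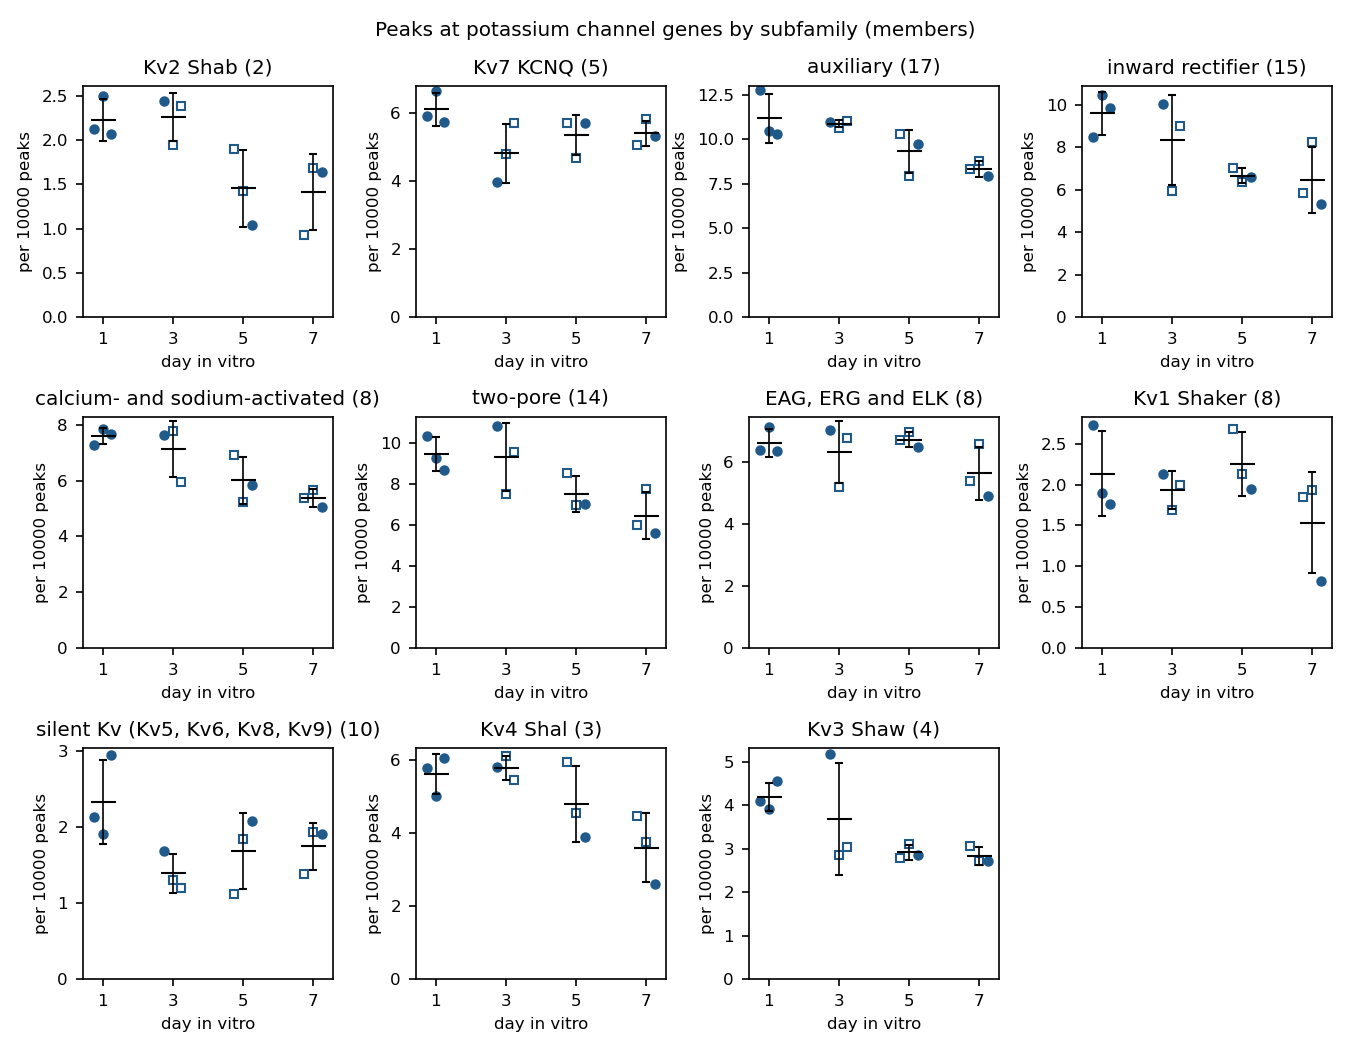
Peaks per 10000 peaks of the library at each potassium channel subfamily (number of genes in parentheses) against the day in vitro. Each point is a library (filled circles read length 51, open squares 50) with the mean and SD of 3 per day; DIV7 means are below DIV1 means in all 11 panels, least so in Kv7 and the ether-a-go-go group.

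The genes with most peaks in their subfamily differed widely in density. Kcnd3, which encodes a Kv4 channel of the A-type current, had the most of all members, with a mean of 29.3 peaks per library or 12.6 per 100 kb, above 97.7% of the 2429 genes over 100 kb, whose median was 2.47. Kcnh1 had 24.5 peaks (7.40 per 100 kb, above 90.2%), and Kcnj6, a G-protein-gated inward rectifier of granule neurons, 22.1 (8.41 per 100 kb, above 92.8%). Kcnma1 had 19.7 peaks but over 713 kb, which is 2.72 per 100 kb (above 55.4%). Kcnip1, a calcium-binding partner of Kv4 channels, had 16.2 and Kcnq1, the Kv7 channel of heart and ear, 16. Kcnk1 (11.5), Kcnc1 (10.8), Kcnb2 (9.75), Kcna2 (5.42) and Kcng2 (3.17) led the other subfamilies. The lowest mean was 0.0833 peaks per library, at Kcnj1, a renal channel.

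In the test of peaks per gene over the days, 7 of the 53 members tested fell and 1 rose (limma on log2 of peaks per 10000 plus 0.1, day as a number, p adjusted by Benjamini-Hochberg over 9108 genes with a mean of at least 2 peaks, threshold 0.05). Of all genes tested 4.16% fell and 1.42% rose. The slope was below 0 at 40 of 53 members (75.5%) and at 56.9% of all genes, with medians of -0.07 and -0.02 per day. The 53 passed a filter on the mean number of peaks, and the other 41 members, with fewer, were not tested. With reads in peaks as a covariate 0 members passed, and 0 of the 9108 genes. The slope was then below 0 at 30 of the 53 members and at 4754 of the 9108 genes.

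Kcnn3, a small-conductance calcium-activated channel behind the afterhyperpolarisation, had 15, 18 and 14 peaks at DIV1, 11, 12 and 13 at DIV3, 15, 8 and 7 at DIV5 and 3, 7 and 7 at DIV7. All DIV7 libraries lay below all DIV1 and DIV3 libraries. Its slope was -0.24 ± 0.0476 (SE) per day on the log2 scale (limma, adjusted p = 0.0122). Alone among the 8, it kept its call whichever library was left out. None of its 46 regions was constant, so its peaks differed from library to library in place as well as in number.

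Kcnd3 had 35, 38 and 38 peaks at DIV1, 31, 37 and 33 at DIV3, 41, 24 and 22 at DIV5 and 17, 23 and 13 at DIV7, and fell by 0.18 ± 0.0451 per day (adjusted p = 0.0297). DIV7 lay below DIV1 and DIV3 without overlap, and DIV5 spanned both. Its partner Kcnip1 had 21, 22 and 18 at DIV1, 15, 22 and 19 at DIV3, 26, 13 and 11 at DIV5 and 7, 9 and 11 at DIV7, and fell by 0.19 ± 0.0471 (adjusted p = 0.0297). Both lost the call without DIV1 replicate 1 (0.0753 and 0.0872), DIV1 replicate 3 (0.0768 and 0.0588) or DIV7 replicate 1 (0.0601 and 0.078). Kcnd3 also lost it without DIV7 replicate 3 (0.0840), and Kcnip1 without DIV7 replicate 2 (0.0519).

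Kcnc4, a Kv3 channel with fast inactivation, had 5, 8 and 6 peaks at DIV1, 7, 7 and 6 at DIV3, 4, 5 and 3 at DIV5 and 3, 3 and 2 at DIV7 (slope -0.19 ± 0.0479, adjusted p = 0.0265). Kcnk13, a tandem-pore leak channel, had 10, 7 and 6 at DIV1, 7, 3 and 6 at DIV3, 5, 2 and 2 at DIV5 and 4, 3 and 2 at DIV7 (slope -0.22 ± 0.0627, adjusted p = 0.0499). For both, DIV7 lay below DIV1 without overlap. Kcnc4 lost the call without any single DIV1 library or DIV7 replicate 3, at 0.0515 to 0.0721, and Kcnk13 without any library other than DIV3 replicate 2 and DIV7 replicate 1, at up to 0.173.

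Kcnn2, another small-conductance calcium-activated channel, rose. It had 4, 4 and 4 peaks at DIV1, 3, 4 and 4 at DIV3, 7, 4 and 9 at DIV5 and 11, 8 and 7 at DIV7, with a slope of 0.18 ± 0.0505 (adjusted p = 0.0482). All DIV7 libraries lay above all DIV1 and DIV3 libraries, with 0.557 ± 0.0713 peaks per 10000 at DIV1 and 1.23 ± 0.404 at DIV7. The call was lost without any library other than DIV5 replicate 2, at 0.0537 to 0.137. Kcnn2 and Kcnn3 thus went in opposite directions, and the difference between them was not tested.

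**Figure D3:**
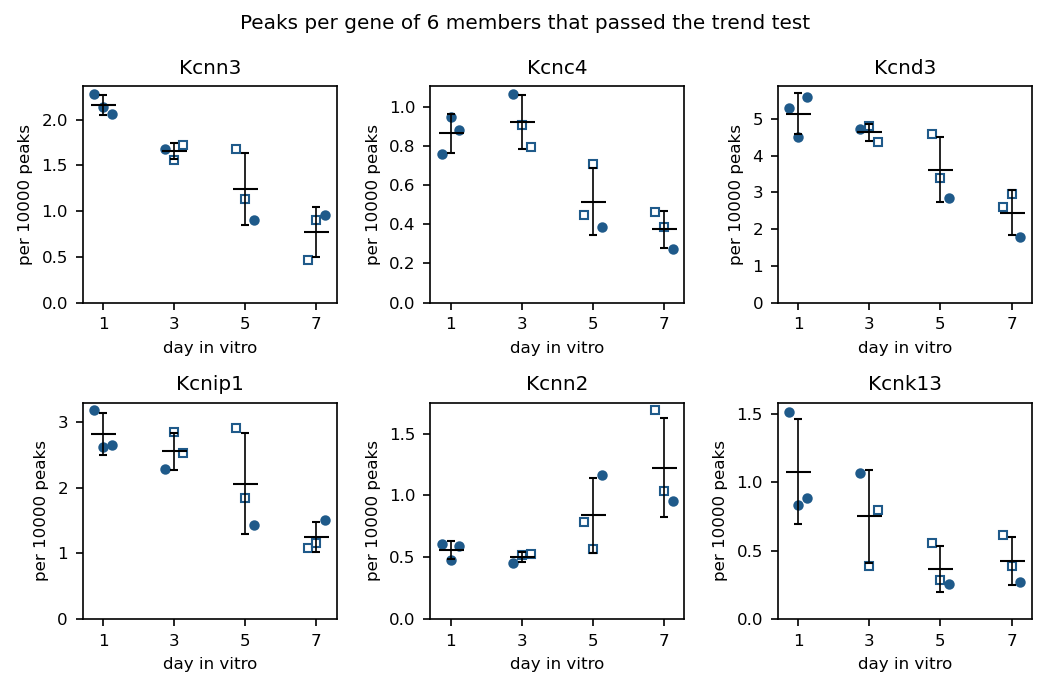
Peaks per 10000 peaks of the library against the day in vitro for 6 members that passed the trend test (limma, adjusted p under 0.05). Each point is a library (filled circles read length 51, open squares 50) with the mean and SD of 3 per day; 5 of the genes shown fall and Kcnn2 rises.

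The members with the next smallest p had slopes in both directions and did not pass. Negative slopes were found at Kcnh2, the ether-a-go-go-related channel known from the heart, with 6, 9 and 8 peaks at DIV1 and 1, 4 and 4 at DIV7 (slope -0.19 ± 0.0574, adjusted p = 0.0568), and at Kcnab2, with 15, 14 and 13 at DIV1 and 8, 8 and 4 at DIV7 (slope -0.17 ± 0.0503, adjusted p = 0.0578). In both genes DIV7 lay below DIV1 without overlap. Among positive slopes, Kcnd2, the Kv4 channel of granule neurons, had 2, 3 and 2 peaks at DIV1, 5, 9 and 6 at DIV3, 11, 6 and 6 at DIV5 and 9, 5 and 5 at DIV7 (slope 0.18 ± 0.0617, adjusted p = 0.0884). All later libraries lay above all DIV1 libraries, and DIV7 was 2.84-fold DIV1 per 10000. Kcnq3, a subunit of the M current, had 6, 6 and 3 at DIV1, 3, 8 and 7 at DIV3, 11, 7 and 8 at DIV5 and 9, 12 and 9 at DIV7 (slope 0.17 ± 0.0498, adjusted p = 0.0569). The remaining positive slopes among the 5 of smallest p were at Kcnip4, a Kv4 partner with a span of 1136 kb, with 0.14 ± 0.0588 (adjusted p = 0.169), and at Kcnq5, with 0.08 ± 0.0601 (adjusted p = 0.449). Within read length 50, which includes no DIV1 library, the slopes were -0.0046 at Kcnd2, 0.13 at Kcnq3, -0.11 at Kcnip4 and -0.16 at Kcnq5. Within read length 51 they were 0.18, 0.14, 0.21 and 0.13. Within the Kv4 family, slopes of both signs therefore stood side by side over the 12 libraries, though the positive one, at Kcnd2, did not pass.

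The signs of these slopes differed with gene length, in a split made after the values were seen. Of the members with a span up to 100 kb, 29 of 32 (90.6%) had a slope below 0, against 56.7% of the 7060 genes of that length tested. Of those over 100 kb, 11 of 21 (52.4%) had one, against 57.6% of 2048. The median slopes were -0.10 and 0.00 per day for the members and -0.01 and -0.02 for all genes. Among the 32 shorter members 4 fell and 0 rose, and among the 21 longer 3 fell and 1 rose. Of all genes tested, at any length, 4.16% fell and 1.42% rose. These shares were not worked out by length, so the counts cannot be set against genes of like span. These slopes have no term for depth. With reads in peaks as a covariate 30 of all 53 members were below 0, and 4754 of all 9108 genes tested. The signs with that covariate are not given by length here. No test was made of this split.

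**Figure D4:**
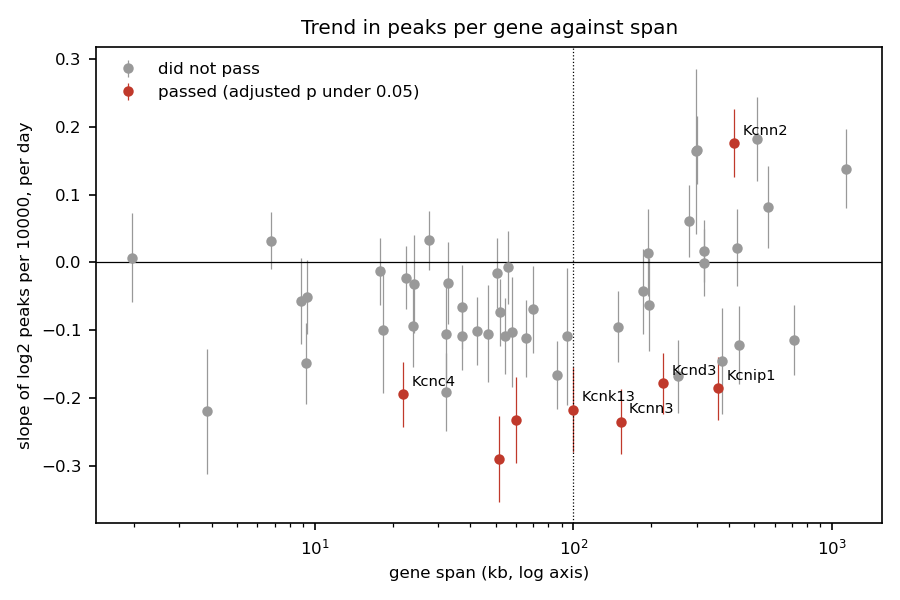
Slope of log2 peaks per 10000 per day (vertical, with SE) against gene span in kb (log axis) for the 53 members tested, with the members that passed in red (6 of them named) and a dotted line at 100 kb. Of the members left of the line 29 of 32 lie below 0, and right of it 11 of 21, in slopes with no term for depth.

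Of the 7 channels known in granule neurons (Kcnc1, Kcnd2, Kcnj6, Kcnk1, Kcnk3, Kcnk9 and Kcnma1), 4 had a peak within 1 kb of a gene end in all 12 lists. The lowest was Kcnk1 in 7, though a RefSeq promoter inside its span had a peak over it in 12. The share of all genes with such an end peak in all 12 lists was not worked out. All 7 held a constant region in their window. In peaks per gene 0 of the 7 passed. Kcnc1 had 14, 16 and 13 peaks at DIV1, 14, 8 and 9 at DIV3, 12, 6 and 9 at DIV5 and 10, 10 and 8 at DIV7 (adjusted p = 0.239). Kcnk1, a weak leak channel, had 14, 11 and 9 at DIV1 and 11, 15 and 5 at DIV7 (adjusted p = 0.570). The leak channels of the standing current, Kcnk3 (8, 14 and 10 at DIV1, 4, 8 and 5 at DIV7; adjusted p = 0.203) and Kcnk9 (7, 5 and 7 at DIV1, 1, 7 and 6 at DIV7; adjusted p = 0.410), did not pass either. Kcnj6 had 23, 36 and 26 at DIV1 and 10, 25 and 10 at DIV7 (adjusted p = 0.0697), and Kcnma1 15, 25 and 19 and 12, 14 and 11 (adjusted p = 0.196).

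Signal was compared at constant regions as the percentile of the maximum signal among the constant regions of a library, so a change is one of rank, and low maxima tie in steps. In the trend over the days 2 of the 66 regions at channel genes fell and 0 rose (limma on normal scores of the rank, adjusted over 12276 regions), against 1.3% falling and 0.741% rising of all constant regions. An unadjusted p under 0.05 was reached by 13 of 66 (19.7%), 8 with a negative and 5 with a positive slope, against 16.3% of all constant regions. The slope was below 0 at 45 of 66 (68.2%), against 50% of all constant regions, with medians of -0.04 and 0.00 per day. With reads in peaks as a covariate 31 of 66 were below 0 and 0 passed, and without the 3 libraries with fewest reads 35 were below 0 and 1 passed.

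The region that fell with the smallest p lies inside Kcnk2, a tandem-pore channel opened by stretch and heat, at chr1:189217267-189219815 (mm10), 123538 bp from the nearest RefSeq start site of the gene. Its percentiles were 45.9, 92.7 and 80.6 at DIV1, 62.5, 40.2 and 27.8 at DIV3, 10.1, 9.81 and 8.65 at DIV5 and 26.8, 1.45 and 14 at DIV7. All DIV5 and DIV7 libraries lay below all earlier ones. The slope was -0.36 ± 0.0755 per day in normal scores (adjusted p of limma 0.0223), and DIV7 differed from DIV1 by -2.03 (adjusted p = 0.0351). Reads in the peak were 192, 164 and 175 at DIV1 and 9, 44 and 25 at DIV7. The slope was -0.25 within the libraries of read length 50 (adjusted p = 0.635), -0.36 within those of 51 (0.150) and -0.48 with depth as a covariate (0.0792), and the call was lost without DIV1 replicate 2 (0.0733) or DIV1 replicate 3 (0.0637). The number of peaks at Kcnk2 did not move with it, with 2, 9 and 5 at DIV1 and 3, 10 and 5 at DIV7 (adjusted p = 0.926).

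The other lies inside Kcnab2, the cytoplasmic beta subunit that brings Kv1 channels to axons, at chr4:152405048-152407282. Its percentiles were 74.6, 77.4 and 94.2 at DIV1, 95.3, 40.2 and 89.7 at DIV3, 70.2, 48.6 and 20.5 at DIV5 and 2.07, 10.4 and 44.4 at DIV7. DIV7 lay below DIV1 without overlap, and DIV3 reached from the level of DIV7 to above DIV1. The slope was -0.37 ± 0.0882 per day (adjusted p = 0.0381). It was -0.54 within read length 50 (adjusted p = 0.358), -0.26 within 51 (0.313) and -0.21 with depth as a covariate (0.596). The call was lost without any single library of DIV1, DIV5 replicate 2 or 3, or DIV7 replicate 1 or 2, at 0.0504 to 0.111. A second constant region of Kcnab2, at the gene end, had a mean percentile of 64.8 at DIV1 and 54.2 at DIV7 (slope -0.03), so the regions of this gene did not move alike, though their difference was not tested.

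**Figure D5:**
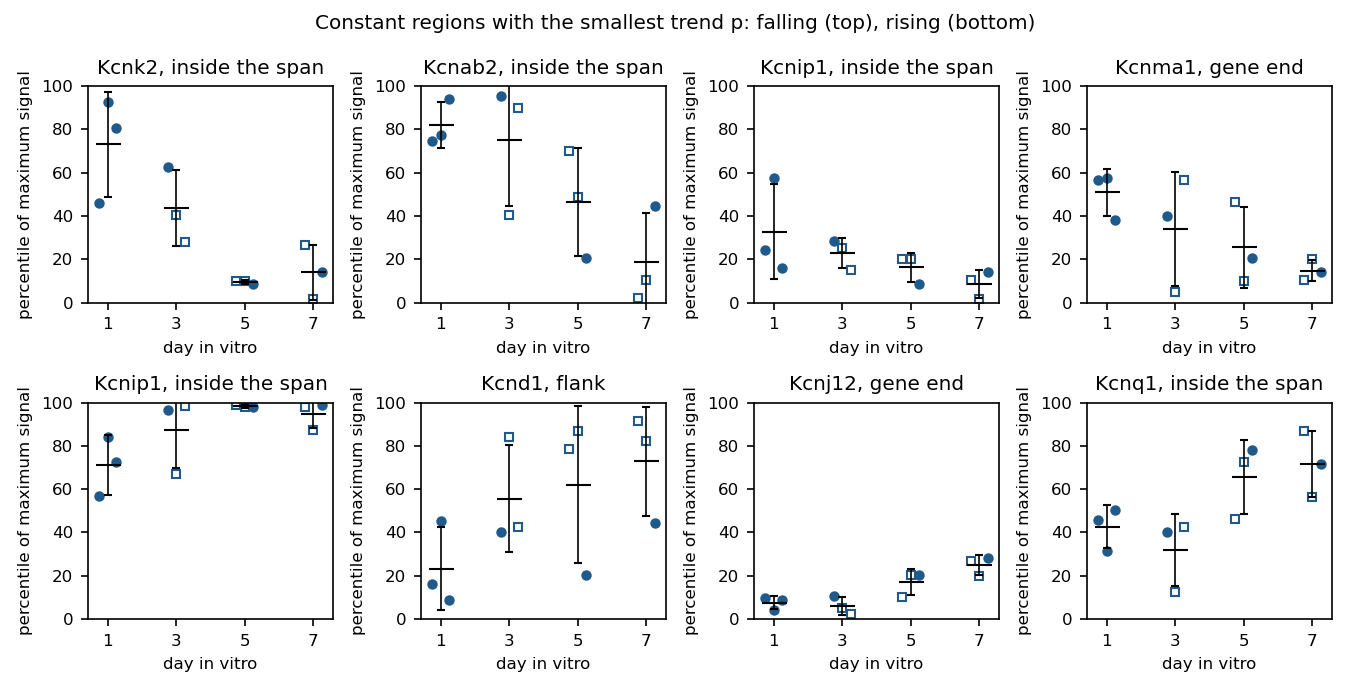
Percentile of the maximum signal among the constant regions of a library against the day in vitro, for the 4 falling (top) and 4 rising (bottom) regions at channel genes with the smallest trend p. Each point is a library (filled circles read length 51, open squares 50) with the mean and SD of 3; only the regions in Kcnk2 and Kcnab2 passed, and both are low in all DIV7 libraries relative to DIV1.

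None of the regions with a positive slope passed. In Kcnip1 a region of 553 bp at chr11:33754615-33755167 had percentiles of 56.8, 84.2 and 72.4 at DIV1 and 97.8, 87.5 and 98.6 at DIV7 (slope 0.21 ± 0.0747, adjusted p = 0.150), without overlap. Another in the same gene, at chr11:33826667-33828618, had 24.5, 57.7 and 16.1 at DIV1 and 10.4, 1.45 and 14 at DIV7 (slope -0.16 ± 0.0610, adjusted p = 0.169). A region at Kcnj12, an inward rectifier, had 9.60, 4.12 and 8.85 at DIV1 and 26.8, 19.9 and 28.3 at DIV7 (slope 0.15 ± 0.0539, adjusted p = 0.156). The 2 regions inside Kcnq1 with slopes of 0.17 and 0.15 had adjusted p of 0.194 and 0.224, and a region in the flank of Kcnd1, near Otud5, 0.154. The starts of Kcnma1 (50.9 ± 11 at DIV1, 14.8 ± 4.80 at DIV7, adjusted p = 0.216) and Kcnh1 (73.2 ± 13.4 and 51.1 ± 12, adjusted p = 0.244) had negative slopes.

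Between DIV7 and DIV1 1 of 66 regions, that in Kcnk2, passed downward and 0 upward, against 1.16% and 0.733% of all constant regions. Between DIV3 and DIV1, across the addition of cytosine arabinoside, 0 passed in either direction (limma), against 0.285% upward and 0.0407% downward of all constant regions. An unadjusted p under 0.05 was reached by 8 of 66 (12.1%), 4 in each direction, against 10.7% of all constant regions. The contrasts share the DIV1 libraries. DIV1 and DIV7 did not overlap at 13 of the 66, with DIV1 higher at 8 and DIV7 higher at 5, against 9.52% and 9.81% of all constant regions.

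Of the 8 constant regions at channel genes with the highest signal, 4 lay within 5 kb of another gene. The highest mean percentile was 93.9, in the flank of Kcnn1 near Arrdc2, followed by 89.9 in the flank of Kcnj14 near Cyth2. The first held 82.3 to 98.7 over the 12 libraries and the second 78.3 to 98.3. The region in Kcnip1 named above had 87.8, a region inside Kcnh1 84.7 and one over the start of Kcnc1 83.9. Kcnk4, a stretch-activated tandem-pore channel, had 82.2 in a flank that also holds Catsperz and Esrra, the end of Kcnk3 had 78 and an end of Kcnn1, near Ccdc124, 77.2. Among the granule neuron channels the order was Kcnc1 and Kcnk3, then the flank of Kcnc1 (55.6), Kcnd2 (41.9), Kcnma1 (31.3), Kcnk1 (30.7 and 23.9), Kcnk9 (16.9) and Kcnj6 (9.28). Ranges of neighbours in this order overlapped. None of these regions, apart from those already given, passed.

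Regions at channel genes that were called in some libraries and not in others held their peaks on early days more often than on late ones, as did regions in general. Of 297 regions at channel genes called in 3 to 9 libraries, 44 (14.8%) had more peaks on early days at an unadjusted p under 0.05 (exact conditional trend test) and 0 on late days, against 11.1% and 1.87% of the 52519 regions tested. After adjustment 0 of the 52519 regions passed, the lowest adjusted p being 0.134. Of the 44, 7 of 18 tested regions lay at Kcnip1, 6 of 23 at Kcnj6, 4 of 20 at Kcnd3, 4 of 10 at Kcnn3, 3 of 7 at Kcnb2 and 3 of 4 at Kcnk13. The 44 lay at 19 genes, and 6 of the 44 were within 1 kb of the end of any gene (4 of the member's own), so most were inside genes or in flanks.

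The clearest was inside Kcnk13, at chr12:100017464-100018262, with a peak in 3 of 3 libraries at DIV1 and at DIV3 and in 0 at DIV5 and DIV7 (exact p = 0.00216, adjusted p = 0.134). Its peaks held 34, 31 and 23 reads at DIV1 and 43, 14 and 20 at DIV3, and where called it stood at a mean percentile of 55.8 among all peaks of a list. Regions in 3 DIV1 and 2 DIV3 libraries and 0 later lay inside Kcnip1 (chr11:33929145-33930127), at Kcne1l, an auxiliary subunit gene on the X chromosome, and inside Kcnb2, a Kv2 delayed rectifier (each exact p = 0.00758). At Kcnip1 the reads were 79, 72 and 42 at DIV1 and 47, 10 and 0 at DIV3. A region near Kcnk4, within 5 kb of Bad and Gpr137, had the same p with peaks in 3, 3, 1 and 0 libraries. A region with no peak holds fewer reads than the caller asked for, and does not show absence of binding, the more so in the shallower libraries of DIV7.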

How the data were processed

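Zic1/2 CUT&RUN was measured in 12 libraries of cultured mouse granule neurons, 3 per day. The submitters' processing notes name mm10 and, among other tools, STAR 2.7.2b, SEACR 1.3, MACS2 2.1, Trimmomatic 0.38 and bedtools 2.25.0, without the step of each. No source used here gives the caller's threshold or control. The deposited lists give for each peak the total and the maximum signal, coverage not scaled to depth, and the authors called peaks per library. Totals divided by 50 or 51 were read as reads in a peak.

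Peaks overlapping by at least 1 bp were merged. In R 4.3.3, limma 3.58.1 was run on all constant regions (normal scores of the within-library rank) and to all genes with a mean of at least 2 peaks (pseudocount 0.1), and was tested on simulated data. Presence was tested by an exact conditional trend test. Sums over members were described only. Depth as a covariate, read length, other signals, windows, overlaps and filters, and leaving out libraries were tried as alternatives.

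The members, the lists and the rule for named genes were chosen with earlier results of these data known. The rule took regions passing the trend, the 5 per direction with smallest p, the 8 of highest percentile, 6 occupancy regions per direction, the leading member of each subfamily, 7 granule neuron channels, and 5 genes per direction by peaks per gene. One listed marker, Ca8, was not used here. Some results that this rule covers are left out of the text.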

Additional observations from a re-analysis of the deposited data

How the results depend on the processing

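Settings are given in turn for the trend over the days (251 constant regions called, 2 at channel genes), DIV7 against DIV1 (232 and 1), DIV3 against DIV1 (40 and 0) and peaks per gene (508 and 8). Total signal in place of the maximum called 923 and 7 regions, 876 and 6, and 120 in all. Log2 signal centred on the library median called 430 in the trend and 10 in DIV3 against DIV1. Regions in at least 10 libraries, with 0 for a missing peak, gave 970 and 7, 862 and 7, and 103. Read length as a term gave 0 at channel genes in the trend, 6 and 0 for DIV7, 3 for DIV3, and 279 and 4 genes. Depth as a covariate gave 9 and 0, 18 and 0, and 0 and 0 genes. Within the 50-base and within the 51-base libraries the trend called 0 and 0 regions. Without the 3 libraries with fewest reads the counts were 101 and 1, 33 and 0 (DIV7 replicate 2 then stands alone and is assumed to vary like the rest), and 63 for DIV3. A pseudocount of 0.5 called 861 genes, and no filter on genes with few peaks 5 at channel genes. Chosen after seeing the data were peaks per gene without the 3 libraries with fewest reads (44 and 0) and within read length 50 (1 and 0) and 51 (215 and 2). The difference of DIV7 and DIV1 in peaks at channel genes per 10000, -18, was -22.9 within the 51-base libraries and -11.9 without the 3 libraries with fewest reads. Of early and late occupancy regions at channel genes (44 and 0), 16 and 3 were counted with the parts of peaks that hold the maximum, and 24 and 4 without those 3 libraries. The cause of these changes was not tested.

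Leaving out each library in turn gave 80 to 299 regions in the trend (0 to 2 at channel genes), 24 to 232 for DIV7 (0 to 2), 1 to 57 for DIV3 (0 to 0), 103 to 710 genes (1 to 9 members), a difference per 10000 of -21 to -15.5, and 35 to 71 early and 0 to 3 late regions. The replicate numbers share no stated source, and deviations of same-numbered libraries correlated at -0.0897 to 0.139, so the libraries were not taken as paired. With a replicate block the trend called 186 and 2 regions, DIV7 against DIV1 238 and 0, DIV3 against DIV1 11 and 0, and peaks per gene 490 and 7. The trend at the end of Kcnk9, 0.01, became -0.24 with total signal (limma, adjusted p = 0.0426). Of the alternatives for named regions and genes, 603 were counted as the same side of the threshold, 83 as a lost call, 6 as a gained one and 1 as reversed. Slopes that did not pass changed sign more often than that. Those of Kcnq5 and Kcnip4, 0.08 and 0.14 in peaks per gene, were -0.16 and -0.11 within read length 50. That of the region inside Kcnh1 at chr1:192386839 ran from -0.167 to 0.0048 as single libraries were left out. The median peak of a library held 9 to 26 reads. Presence near the caller's limit may therefore depend on depth, which was not tested.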
